A study of Mus musculus with 12 samples.

Results

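Immediate early and AP-1 genes were followed across freshly isolated mouse intestinal crypts and cultured crypt monolayers. The 10 genes were Fos, Fosb, Fosl1, Jun, Junb, Atf3, Egr1, Nr4a1, Ier2 and Dusp1. The rule takes them by symbol, through their Ensembl identifiers without the version, and uses no measured value. All 10 were found among the 55487 genes of the tables.

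Immediate early genes are transcribed within minutes of a stimulus from factors that the cell already holds, so their first response needs no new protein. Fos and Jun proteins pair through leucine zippers to form AP-1, a transcription factor that acts downstream of mitogen-activated protein kinases in proliferation, wound repair and stress. In the intestinal epithelium these genes respond to epidermal growth factor and to injury, and in many tissues their transcripts are known to accumulate during enzymatic dissociation.

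RNA was sequenced from the small intestine (SI) and large intestine (LI) of C57BL/6 mice in 12 libraries, with 4 groups of 3. Tissue samples of either region were crypts taken fresh from the mouse, with a library per mouse, and monolayer samples were crypts cultured on Matrigel for 24 h in control medium, with a library per set of pooled wells. The mice were male or female and 6 to 10 weeks old, with SI and LI cultures started from the same animals. The comparisons ask how levels in each culture stand against the tissue it came from, and whether this differs between regions.

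Crypt isolation for culture differed between regions. SI epithelium was released from jejunum in ice-cold buffer with EDTA, and crypts were separated from villi with strainers. LI pieces were digested at body temperature with collagenase D, dispase and DNase in medium holding the ROCK inhibitor Y-27632, EDTA was then added, and debris was filtered off. The methods describe these steps for the cultures and give no separate account for the sequenced fresh crypts. Both cultures were seeded with CHIR-99021, EGF, LDN-193189, R-spondin-1, Wnt3a and Y-27632 and then kept in WENR medium, which contains Wnt3a, EGF, Noggin and R-spondin-1. Region and isolation method therefore change together between the monolayers, and also between the tissues if their crypts were isolated in these ways, and cannot be told apart. Time since isolation, culture and medium change together between tissue and monolayers, and whether isolation differed between them as well is not stated.

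Libraries held 59016196 to 76216530 counts (median 69256790). Levels are given as normalized counts, the authors' counts divided by a size factor per library, and differences as log2 fold changes from edgeR's quasi-likelihood test with Benjamini-Hochberg adjustment over 19581 tested genes. A gene was called where its adjusted p was under 0.05 and its log2 fold change was at least 1 in size. At this depth 3 counts, the limit that a count of 0 allows, came to 2.67 to 3.53 normalized counts, for counting error only, and more if both mates of a pair were counted, which is not stated. All 10 members passed the filter on low counts.

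The members did not share a single pattern. Fos, Fosb, Jun and Ier2 had their highest group mean in LI tissue, 5 members (Junb, Atf3, Fosl1, Nr4a1 and Dusp1) had it in LI monolayers, and Egr1 had it in SI monolayers. The lowest group mean lay in SI tissue for 9 members and in SI monolayers for Fos, whose means outside LI tissue lay close together. These are bulk RNA samples, in which fewer cells of a type and less RNA per cell cannot be told apart.

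**Figure D1:**
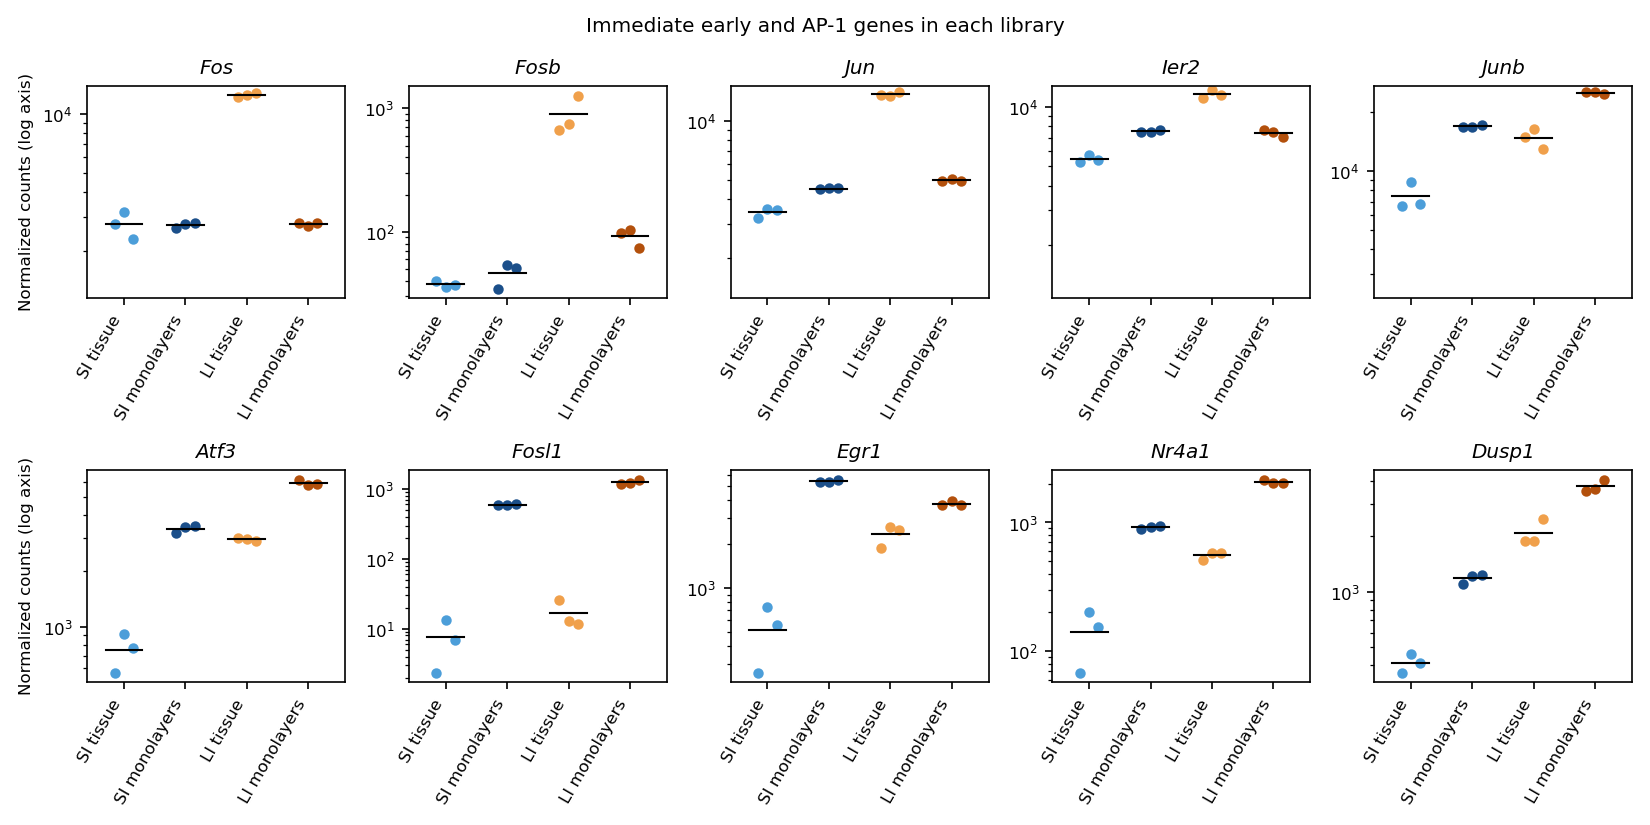
Normalized counts of each member (log axis, a separate range per gene) in the 12 libraries, with a point per library and a line at each group mean. Fos, Fosb, Jun and Ier2 stand highest in LI tissue, and Fosl1 reaches at most 25.4 normalized counts in tissue and at least 581 in monolayers.

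Fos encodes the prototype partner of Jun in AP-1. It held 2741, 3168 and 2322 normalized counts in SI tissue, 12123, 12497 and 12722 in LI tissue, 2630, 2752 and 2772 in SI monolayers, and 2794, 2684 and 2791 in LI monolayers. The 3 LI tissue libraries stood far above the other 9, which overlapped each other. Group means were 2743 ± 423 in SI tissue, 12447 ± 302 in LI tissue, 2718 ± 77.0 in SI monolayers, and 2756 ± 62.7 in LI monolayers (SD, n = 3). Fos was lower in LI monolayers than in LI tissue by a log2 fold change of -2.13 (SE 0.08, adjusted p = 1.7e-12 in edgeR). In SI the log2 fold change was 0.02, with a 95% interval from -0.15 to 0.19 (adjusted p = 0.829), and between SI and LI monolayers it was 0.01, with an interval from -0.16 to 0.18 (adjusted p = 0.943). The sign of both small values depended on the scaling or filter used.

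Fosb, a Fos paralog, was also highest in LI tissue, at a far lower level than Fos (143 against 5292 normalized counts per kilobase of exon). It held 40.0, 35.4 and 37.1 normalized counts in SI tissue, 667, 751 and 1269 in LI tissue, 34.6, 53.4 and 51.1 in SI monolayers, and 98.2, 103 and 73.1 in LI monolayers. LI tissue was again above every other library, LI monolayers stood apart below it, and the SI groups overlapped. Replicate 3 held most of the spread in LI tissue, where the mean was 895 ± 326 (SD, n = 3). Fosb was lower in SI tissue than in LI tissue by a log2 fold change of -4.54 (SE 0.27, adjusted p = 1.3e-09 in edgeR), and lower in LI monolayers than in LI tissue by -3.25 (SE 0.25, adjusted p = 8e-09). Between SI and LI monolayers the log2 fold change of -0.95 missed the fold threshold, and it passed without SI monolayer replicate 2 (-1.03) or LI monolayer replicate 3 (-1.05).

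Jun, the partner that pairs with Fos proteins or with itself, followed Fos in LI. Its levels were 3219, 3559 and 3511 normalized counts in SI tissue, 13575, 13361 and 13950 in LI tissue, 4494, 4523 and 4533 in SI monolayers, and 4923, 5065 and 4956 in LI monolayers. No 2 groups overlapped, but the gap between LI tissue and the rest was many times the gaps among the other groups. Jun was lower in LI monolayers than in LI tissue (log2 fold change -1.41, SE 0.05, adjusted p = 4.5e-13 in edgeR) and lower in SI tissue than in LI tissue (-1.95, SE 0.05, adjusted p = 5.9e-14). In SI monolayers it was above SI tissue by a log2 fold change of 0.43 (SE 0.05, adjusted p = 1.2e-06), under the fold threshold.

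Ier2, a small nuclear protein induced by growth factors, was also highest in LI tissue and lowest in SI tissue, with smaller steps. It held 5286, 5717 and 5367 normalized counts in SI tissue, 11088, 12296 and 11485 in LI tissue, 7486, 7476 and 7667 in SI monolayers, and 7624, 7442 and 7083 in LI monolayers. LI tissue was highest and SI tissue lowest without overlap, and the monolayer groups overlapped. The log2 fold change was 0.50 in SI monolayers against SI tissue (SE 0.05, adjusted p = 5.7e-07 in edgeR) and -0.61 in LI monolayers against LI tissue (SE 0.05, adjusted p = 3.2e-08), both under the fold threshold and of opposite sign. SI tissue was below LI tissue by -1.05 (SE 0.05, adjusted p = 1.3e-10).

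Fosl1 encodes Fra-1, a Fos family protein known from migrating and wounded epithelia, and had the widest span of the 10. Its levels were 2.35, 13.6 and 6.84 normalized counts in SI tissue, 25.4, 12.8 and 11.6 in LI tissue, 592, 581 and 612 in SI monolayers, and 1181, 1234 and 1360 in LI monolayers. Every monolayer library was far above every tissue library, LI monolayers were above SI monolayers, and the tissue groups overlapped. The highest group mean was 166 times the lowest. Monolayers exceeded tissue by a log2 fold change of 6.28 in SI (SE 0.28, adjusted p = 2.9e-11 in edgeR, 6.95 without SI tissue replicate 2) and 6.29 in LI (SE 0.24, adjusted p = 2.2e-12). SI monolayers were below LI monolayers by -1.05 (SE 0.17, adjusted p = 8.6e-05), a call that ended without LI monolayer replicate 3 (-0.96). The tissue comparison gave -1.04 (95% interval -1.91 to -0.17, adjusted p = 0.0431), a call that rested on few counts and ended without SI tissue replicate 1 (-0.66), SI tissue replicate 3 (-0.95) or LI tissue replicate 1 (-0.62), and that was -1.71 without SI tissue replicate 2. It also ended with a replicate block (adjusted p = 0.0694), with counts halved (adjusted p = 0.0506) and with only those groups fitted (adjusted p = 0.181), with adjusted p from 0.00533 to 0.237 over the alternatives.

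Fosl1 shares 57.2% of its exon bases with Ccdc85b, which lies on the opposite strand, and the sources used here do not say whether reads were counted by strand, so its counts are uncertain. Ccdc85b had means of 601 ± 12.6 normalized counts in SI tissue, 1323 ± 114 in LI tissue, 1124 ± 47.6 in SI monolayers, and 1301 ± 19.8 in LI monolayers (SD, n = 3). Its log2 fold change was 0.02 in LI monolayers against LI tissue (adjusted p = 0.821 in edgeR) and 0.94 in SI monolayers against SI tissue (adjusted p = 3.7e-08). Jun shares 7.28% of its exon bases with Junos, Junb shares 7.52% with Prdx2 and Dusp1 shares 0.332% with Ergic1, each on the opposite strand.

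Junb, a Jun paralog that is often a weaker activator than Jun, was the most abundant member per kilobase of exon in both monolayers (7358 normalized counts in SI, 10886 in LI), as Ier2 was in LI tissue (7637), while in SI tissue Junb (3229 ± 523) and Ier2 (3585 ± 150) overlapped. It held 6640, 8814 and 6834 normalized counts in SI tissue, 14928, 16427 and 13024 in LI tissue, 16705, 16849 and 17240 in SI monolayers, and 25324, 25199 and 24622 in LI monolayers. The order from LI monolayers through SI monolayers and LI tissue to SI tissue had no overlap, though SI monolayers and LI tissue nearly met. Against tissue, monolayers had a log2 fold change of 1.22 in SI (SE 0.10, adjusted p = 8.3e-08 in edgeR) and 0.81 in LI (SE 0.10, adjusted p = 3.7e-06), which is under the fold threshold. The difference of these changes was 0.42 (SE 0.13, adjusted p = 0.0212), also under the fold threshold. SI tissue was below LI tissue by -0.95 (SE 0.10, adjusted p = 1.4e-06), just short of the fold threshold, which it passed with upper quartile scaling (-1.03), without a filter (-1.01), with those groups alone (-1.02), and without SI tissue replicate 2 (-1.09), LI tissue replicate 3 (-1.03) or any 1 of the 6 monolayer libraries (-1.03 in each).

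Atf3, a stress-induced member of the ATF/CREB family that can pair with Jun proteins, held 567, 919 and 769 normalized counts in SI tissue, 2999, 2973 and 2880 in LI tissue, 3192, 3418 and 3482 in SI monolayers, and 6163, 5769 and 5820 in LI monolayers. SI tissue stood far below the other groups and LI monolayers far above, and SI monolayers were above LI tissue without overlap. The log2 fold change of monolayers against tissue was 2.19 in SI (SE 0.12, adjusted p = 6.9e-09 in edgeR) and 1.05 in LI (SE 0.12, adjusted p = 3.3e-06), and the difference of these changes was 1.14 (SE 0.17, adjusted p = 0.00011). The LI call rested on the fold threshold, and the value was 0.93 with upper quartile scaling, 0.97 with at least 10 counts in every library, 0.98 without SI monolayer replicate 1, 2 or 3, 0.95 without LI monolayer replicate 1 and 0.99 without LI monolayer replicate 3. The call of the difference ended without SI tissue replicate 1 (0.98).

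Egr1, a zinc finger transcription factor induced through ERK, was the member that was highest in SI monolayers. It held 261, 734 and 556 normalized counts in SI tissue, 1893, 2633 and 2485 in LI tissue, 5364, 5347 and 5549 in SI monolayers, and 3690, 3984 and 3731 in LI monolayers. All 4 groups were separate, with SI tissue lowest and widely spread. From tissue to monolayers Egr1 had a log2 fold change of 3.42 in SI (SE 0.31, adjusted p = 1.1e-05 in edgeR) and 0.75 in LI (SE 0.28, adjusted p = 0.0384), which is under the fold threshold. Between regions these changes differed by 2.67 (SE 0.40, adjusted p = 0.000596). SI monolayers against LI monolayers gave 0.54 with a 95% interval from -0.08 to 1.17 (adjusted p = 0.135), although the libraries did not overlap. The interval uses 1 estimate of spread shared by all 4 groups, so it includes the wide spread of SI tissue (517 ± 239). The monolayers themselves had 5420 ± 112 in SI and 3802 ± 159 in LI (mean and SD, n = 3). Over the alternatives, in edgeR or DESeq2, the adjusted p between monolayers ranged from 3.19e-10 to 0.24. The log2 fold change ranged from 0.51 to 0.60, under the fold threshold throughout.

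Nr4a1, an orphan nuclear receptor induced by growth factor and calcium signals, held 68.2, 201 and 154 normalized counts in SI tissue, 512, 576 and 583 in LI tissue, 891, 928 and 939 in SI monolayers, and 2152, 2014 and 2043 in LI monolayers. The groups did not overlap, and SI tissue replicate 1 was well under the other SI tissue libraries. Monolayers were above tissue by 2.72 on the log2 scale in SI (SE 0.25, adjusted p = 2.8e-06 in edgeR) and 1.94 in LI (SE 0.23, adjusted p = 1.4e-05). SI monolayers were below LI monolayers by -1.14 (SE 0.22, adjusted p = 0.00113). The difference between regions in the monolayer change was 0.78 (SE 0.33, adjusted p = 0.078) and was called without SI tissue replicate 2 (1.11, adjusted p = 0.00653), with adjusted p from 0.00653 to 0.161 over the alternatives.

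Dusp1 encodes a nuclear phosphatase that switches off mitogen-activated protein kinases, and thus acts as the brake in the set. It held 363, 461 and 411 normalized counts in SI tissue, 1897, 1897 and 2499 in LI tissue, 1099, 1220 and 1235 in SI monolayers, and 3543, 3637 and 4067 in LI monolayers. Both LI groups were above both SI groups without overlap, and monolayers were above tissue within each region. The log2 fold change of monolayers against tissue was 1.56 in SI (SE 0.12, adjusted p = 2.7e-08 in edgeR) and 0.88 in LI (SE 0.11, adjusted p = 3.8e-06), which passed the fold threshold without LI tissue replicate 3 (1.04). SI was below LI by -2.31 in tissue (SE 0.12, adjusted p = 5.1e-10) and by -1.63 in monolayers (SE 0.11, adjusted p = 1.3e-08), and Dusp1 had the largest difference of the 10 between monolayers of the regions.

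In SI monolayers against SI tissue, 6 of 10 members were called, all of them higher (Fosl1, Egr1, Nr4a1, Atf3, Dusp1 and Junb). Of all tested genes 9.71% were called higher and 16.4% lower. The median log2 fold change was 1.39 over the members and -0.05 over all tested genes. Libraries of SI tissue and SI monolayers did not overlap for 8 members, as for 66.4% of all tested genes, and Fos and Fosb overlapped.

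In LI monolayers against LI tissue, 6 of 10 members were called, and they split by direction. Higher were 3 (Fosl1, Nr4a1 and Atf3), where 14.5% of all tested genes were called higher, and lower were 3 (Fosb, Fos and Jun), where 23.5% of all tested genes were called lower. The share of members called lower is thus near that of all genes. The median log2 fold change was 0.78 over the members and -0.05 over all tested genes, and upper quartile scaling moved the median of all tested genes by -0.12 here. Libraries of the groups did not overlap for any of the 10 members, nor for 73.1% of all tested genes.

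SI tissue and LI tissue differed in the same direction for all 10 members, and 9 were called, each lower in SI tissue. Of all tested genes 11.1% were called lower and 11.6% higher in SI tissue. The median log2 fold change was -1.94 over the members and 0.06 over all tested genes, and of the members only Fosl1 overlapped between these groups, where 58.8% of all tested genes did not overlap. Whether the difference follows the region or the way the crypts were isolated cannot be told apart in this design.

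After 24 h of culture the regions differed less for Fos, Fosb, Jun, Egr1, Atf3 and Ier2, by the test of the interaction given next, which was not called for Fosl1, Junb, Dusp1 and Nr4a1. SI monolayers were below LI monolayers for 3 called members (Dusp1, Nr4a1 and Fosl1), where 8.88% of all tested genes were called lower and 12.4% higher. The members' median log2 fold change was -0.66, and it was 0.02 over all tested genes. Fos, Jun and Ier2 had log2 fold changes of 0.01, -0.11 and 0.06 between the monolayers, after -2.14, -1.95 and -1.05 between the tissues.

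The interaction of region and preparation takes the monolayer change in SI minus that in LI. It was called for 6 of 10 members, all with a positive value (median 1.13 over the members, -0.000208 over all tested genes), where 11.4% of all tested genes were called with a positive and 8.51% with a negative value. The values were 3.59 for Fosb (SE 0.38, adjusted p = 1.7e-06 in edgeR), 2.67 for Egr1, 2.15 for Fos (SE 0.11, adjusted p = 7.1e-10), 1.84 for Jun (SE 0.07, adjusted p = 1.8e-11), 1.14 for Atf3 and 1.11 for Ier2 (SE 0.08, adjusted p = 1e-08). For Fos, Fosb and Jun the positive value came with a fall in LI, and for Egr1 and Atf3 with a larger rise in SI. For Fosl1 it was -0.01 (adjusted p = 1), with no interval because the test statistic was near 0. The comparisons share libraries (each group enters 3 of the 5), so they are not independent of each other.

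**Figure D2:**
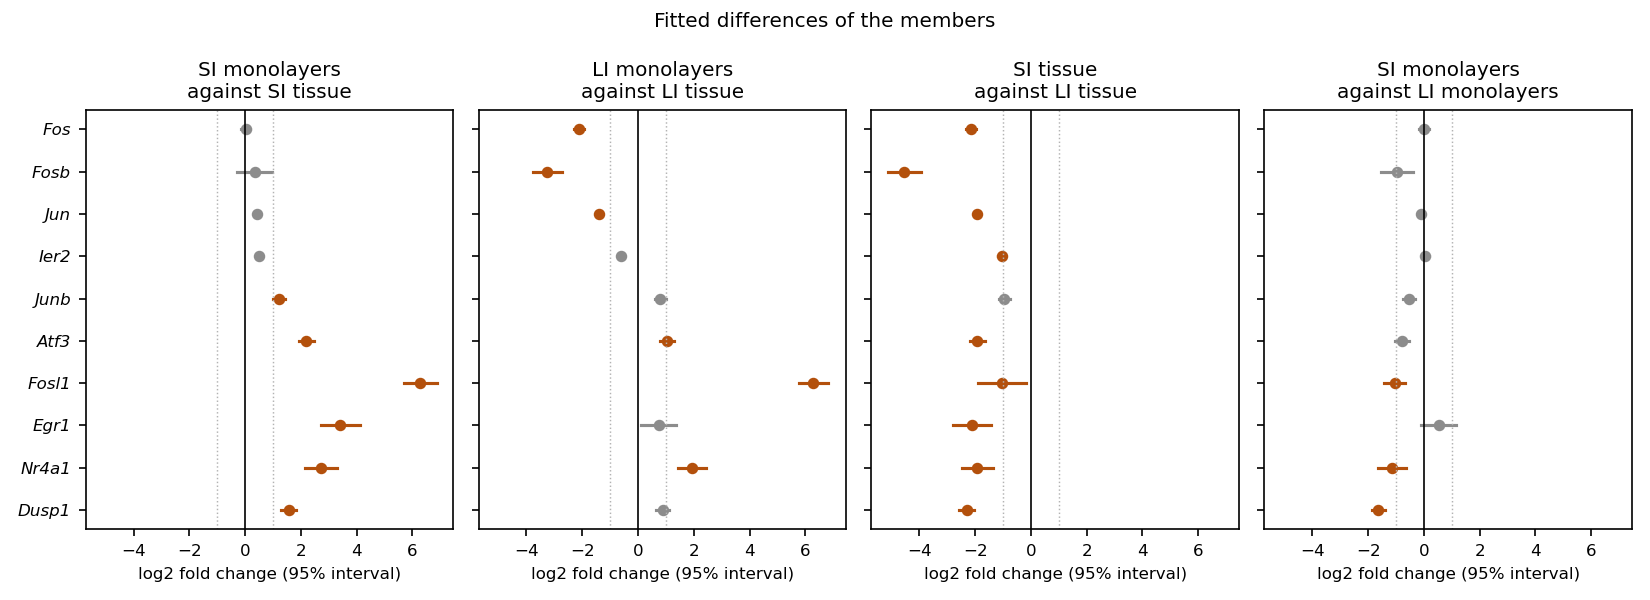
Log2 fold change of each member with its 95% interval in the 4 pairwise comparisons (orange, called, grey, not called, dotted lines at -1 and 1). All 10 members lie below 0 in SI tissue against LI tissue, and Fos, Fosb and Jun lie below -1 in LI monolayers against LI tissue.

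Normalized counts grow with transcript length, so levels of different genes were compared per kilobase of exon. Per kilobase, Fos made up 61.8% ± 1.44 of the summed Fos, Fosb, Fosl1 and Fosl2 transcripts in SI tissue, 83.9% ± 0.555 in LI tissue, 45.7% ± 0.644 in SI monolayers, and 33.3% ± 1.28 in LI monolayers (SD, n = 3). Fosl1 rose from 0.193% ± 0.125 to 11.6% ± 0.218 of the family in SI, and from 0.130% ± 0.0622 to 17.6% ± 0.627 in LI. Fosl2, a paralog that was not among the 10, made up 37.7% ± 1.42 in SI tissue, 13.7% ± 1.21 in LI tissue, 42.5% ± 0.493 in SI monolayers, and 48.7% ± 0.818 in LI monolayers. By these lengths Fos was the leading family transcript in both tissues, and Fosl2 led in LI monolayers. In SI monolayers Fos and Fosl2 were close, at 1156 and 1074 normalized counts per kilobase. The lengths are unions of annotated exons, 2352 bases for Fos and 9680 for Fosl2. The transcripts expressed may be shorter, so the order of Fos and Fosl2 depends on these lengths, and in SI monolayers it is not settled. Fosb never exceeded 2.27% as a group mean.

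In the Jun family, Jun made up 14.6% ± 0.845 of the summed Jun, Junb and Jund transcripts per kilobase in SI tissue, 28.1% ± 1.34 in LI tissue, 9.995% ± 0.225 in SI monolayers, and 7.58% ± 0.0177 in LI monolayers (SD, n = 3). Junb was the leading transcript of this family in all 4 groups by the mean, with 43.7% ± 3.10 in SI tissue, where it could not be separated from Jund at 41.7% ± 2.33, and 52.8% ± 1.10 in LI monolayers. The summed family level was 7361 ± 659 normalized counts per kilobase in SI tissue, 15226 ± 393 in LI tissue, 14176 ± 378 in SI monolayers, and 20612 ± 291 in LI monolayers. The Fos family summed to 1884 ± 250, 6307 ± 112, 2530 ± 51.6 and 3522 ± 130 in the same order. Jun family transcripts therefore outnumbered Fos family transcripts per kilobase in every group.

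**Figure D3:**
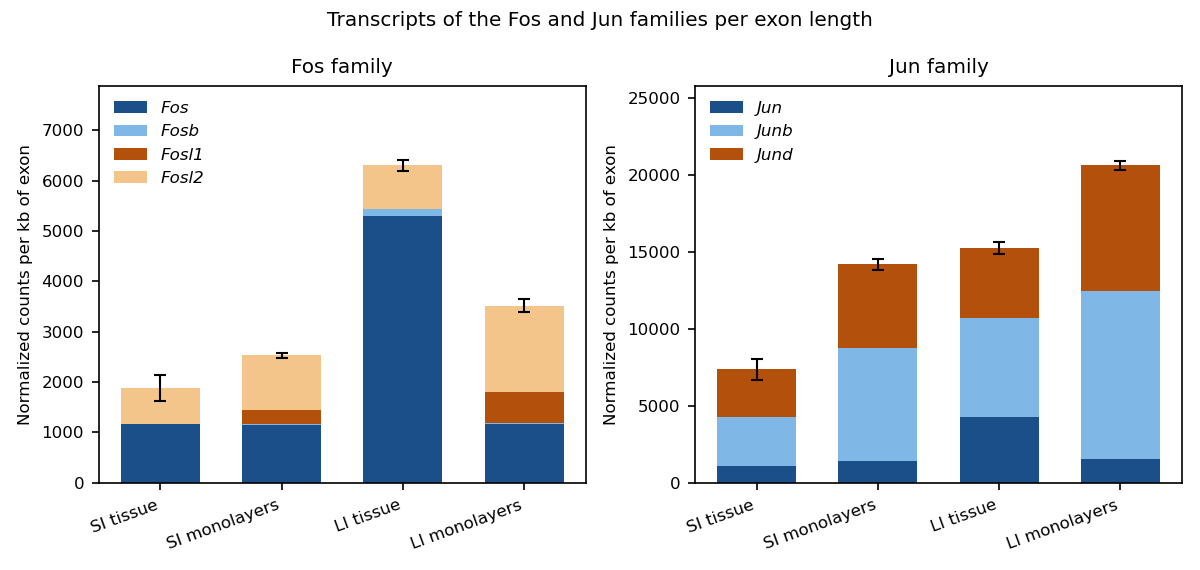
Stacked group means of Fos family transcripts (left) and Jun family transcripts (right) in normalized counts per kilobase of exon, with error bars for the SD of the family sum over 3 libraries. Fos fills 83.9% of the Fos family bar in LI tissue and 33.3% in LI monolayers. The level of Fosl1 is uncertain because of its overlap with Ccdc85b.

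Replicates were tighter in monolayers than in tissue, but tissue replicates are mice, while pooled wells of monolayers may share animals. The median coefficient of variation of the 10 members was 15.8% in SI tissue, 9.26% in LI tissue, 2.69% in SI monolayers, and 3.68% in LI monolayers. Over tested genes with a group mean of at least 30 normalized counts it was 9.21%, 8.06%, 4.88% and 5.60% in the same order. In SI tissue, replicate 2 was the highest library for 9 members and replicate 1 the lowest for 8, and in SI monolayers replicate 3 was the highest for 9 and replicate 1 the lowest for 7. SI tissue libraries also differed in other measures, of which some set replicate 1 apart and some replicate 3. Replicate 1 had 9.16% mitochondrial counts against 5.92% and 4.56% in replicates 2 and 3. Its Col1a1 was 1020 normalized counts against 223 and 149. Lyz1 rose over replicates 1 to 3, at 84331, 175374 and 359996. Replicate 3 had Vil1 at 124741 against 175996 and 179303 in replicates 1 and 2, and Ptprc at 2832 against 4240 and 4624. Without SI tissue replicate 1, 6 members were called in SI monolayers against SI tissue, 8 between tissues (Fosl1 lost) and 5 in the interaction (Atf3 lost). Without SI tissue replicate 3 the counts were 6, 8 (Fosl1 lost) and 6 in the same order. The part of these differences in the results was not tested. Fosl1 in SI tissue, with few counts, was the most variable, at 74.3%.

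Of the other AP-1 and related leucine zipper genes, 12 were tested. In SI monolayers against SI tissue 3 were called higher and 2 lower (median log2 fold change 0.70), and in LI monolayers against LI tissue 6 were higher and 1 lower (median 0.97). Counts of this and each later list stand against all tested genes, of which 9.71% were called higher and 16.4% lower in SI, and 14.5% higher and 23.5% lower in LI, so the counts of lower genes here are near or below that of all genes. Jdp2, a repressor that pairs with Jun proteins, had 125, 350 and 222 normalized counts in SI tissue, 94.9, 25.6 and 50.9 in LI tissue, 1934, 1965 and 1948 in SI monolayers, and 1459, 1272 and 1164 in LI monolayers. Both monolayer groups were far above both tissues, with log2 fold changes of 3.10 in SI (adjusted p = 7.6e-05 in edgeR) and 4.56 in LI (adjusted p = 8.9e-06). Maff, a small Maf protein, rose by 1.64 in SI and 2.07 in LI. Batf, a leucine zipper factor best known from lymphocytes, had 68.2, 109 and 41.1 normalized counts in SI tissue and 0, 5.34 and 1.82 in SI monolayers, where it was not above the limit of 3 counts on average, so no fold is given. The summed immune markers, given with the other cell types, were also higher in tissue, though Cd68 among them was called higher in monolayers. The part of immune cells in the level of Batf was not tested. Batf3 had 18.8, 4.17 and 9.78 normalized counts in SI tissue and was listed at 0 in all SI monolayers (the list's median is 0.70 with its fitted value or with it at the limit of 3 counts per library). Fosl2 rose by 1.04 in LI, where it was called, and had 0.64 in SI.

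Of 28 other immediate early genes, 27 were tested. In SI monolayers against SI tissue 12 were called higher and 5 lower (median 0.41), and in LI monolayers against LI tissue 16 were higher and 4 lower (median 1.49). The largest rises were in Arc and Trib1 in SI (3.43 and 2.74) and in Ier3 and Plk2 in LI (4.60 and 4.54). Klf4, a transcription factor of differentiating surface cells, had 12581, 15630 and 12399 normalized counts in SI tissue, 55618, 54917 and 52991 in LI tissue, 3952, 4157 and 3871 in SI monolayers, and 5956, 5908 and 6178 in LI monolayers. As with Fos and Jun, LI tissue was highest without overlap, but Klf4 also fell in SI, with log2 fold changes of -1.73 in SI and -3.13 in LI (adjusted p = 1.05e-11 and 7.67e-15 in edgeR). Socs3, a feedback inhibitor of cytokine signaling, fell by 1.84 in SI and 2.75 in LI. Sgk1, a kinase induced by serum and glucocorticoid, fell by 1.92 in SI and 1.84 in LI. In SI tissue against LI tissue 3 of the 27 were higher and 4 lower, near the 11.6% and 11.1% of all tested genes.

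The 14 ERK feedback and reporter genes, whose transcripts follow the activity of that kinase in many cells, mostly rose. In SI monolayers against SI tissue 9 were called, all of them higher (median 2.08), and in LI monolayers against LI tissue 11 were higher and 1 was lower (median 1.83). Phlda1 and Dusp10 rose most in SI (3.85 and 3.29), and Dusp10 and Dusp14 in LI (4.33 and 4.26). The gene that fell in LI was Etv5, with -1.31 (adjusted p = 2.6e-07 in edgeR). It had 1233, 1162 and 860 normalized counts in LI tissue, 381, 425 and 468 in LI monolayers, 160, 123 and 147 in SI tissue, and 595, 594 and 536 in SI monolayers, so it was high in LI tissue and lowest in SI tissue.

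Of 14 upstream kinases and transcription factors, few passed the fold threshold. Elk3, an ETS factor that binds with serum response factor, was the gene called in SI (1.88) and was higher in LI as well (4.05), with Srf itself at 1.13 in LI. The medians were 0.20 in SI and 0.48 in LI. Of 12 known AP-1 target genes, 6 were called higher and 1 lower in SI (median 0.99), and 11 higher in LI (median 3.09). These counts and medians include Mmp3, Mmp10 and Mmp13, which had few counts outside LI monolayers and passed the filter through that group, so their calls in LI had to follow and support nothing. Plaur, the urokinase receptor, had 231, 285 and 218 normalized counts in SI tissue, 621, 504 and 474 in LI tissue, 13738, 13807 and 14030 in SI monolayers, and 26875, 27090 and 26491 in LI monolayers. It separated the monolayers from the tissues as Fosl1 did, and rose by 5.86 in SI and 5.70 in LI (adjusted p = 2.5e-15 and 1.1e-15 in edgeR). Plau, its ligand, rose by 3.20 in SI. The matrix metalloproteinases Mmp3 and Mmp10 had the largest fitted rises in LI. Mmp3 was listed at 0 in all LI tissue libraries and had 236, 262 and 237 normalized counts in LI monolayers, at least 89.1-fold higher with the limit at 3 counts per library, or at least 44.6-fold if both mates were counted (list median 3.09 at that limit too), and Mmp10 had 153, 186 and 154 in LI monolayers and at most 1.88 in LI tissue. Mmp13, the gene called lower in SI, had 14.1, 6.25 and 3.91 normalized counts in SI tissue and 1.92, 3.56 and 1.82 in SI monolayers, which are not above the limit of 3 counts on average, so no fold is given.

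Heat shock genes, which report protein stress, were examined since crypts for culture were isolated differently in the regions. Of 10, 5 were called higher in SI monolayers against SI tissue (median 1.004) and 6 in LI (median 1.29). In SI tissue against LI tissue 3 were called, all lower in SI tissue, where 11.1% of all tested genes were lower and 11.6% higher, while the list's median was 0.33. Hspa1a held 359, 118 and 63.5 normalized counts in SI tissue, 1112, 618 and 2515 in LI tissue, 1030, 1093 and 1116 in SI monolayers, and 2749, 2763 and 3510 in LI monolayers. SI tissue was lowest without overlap, and libraries were uneven in both tissues. Hspa1a and Hspa1b were lower in SI tissue than in LI tissue by -2.97 and -2.31 (adjusted p = 0.00513 and 0.00463 in edgeR). Hspa1b rose by 3.13 in SI and 2.53 in LI, Hspa1a rose by 2.65 in SI, and Hsph1 rose by 3.07 in LI. Their part in the members' differences was not tested.

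Marker genes were checked against the label of each group. The 6 epithelial markers summed to 763155 ± 52703 normalized counts in SI tissue, 1171050 ± 17126 in LI tissue, 1224310 ± 17457 in SI monolayers, and 1507070 ± 13736 in LI monolayers (SD, n = 3), with Krt8 the most abundant and each of the 6 detected in all groups. Krt8, Krt18 and Cdh1 had higher means in monolayers than in tissue of both regions, while Epcam, Krt20 and Vil1 had lower means. Krt20 was called lower in LI (-2.01, adjusted p = 2e-10 in edgeR). Of the small intestine markers, 2 of 3 were found, and Lyz1 (a Paneth cell gene) and Fabp1 (a fatty acid binding protein) summed to 186280, 250901 and 416351 in SI tissue, 2382, 1005 and 524 in LI tissue, 210896, 203934 and 216296 in SI monolayers, and 1876, 2585 and 2519 in LI monolayers. Lyz1 and Fabp1 each stood higher in SI in tissue and in culture, and Lyz1 gave most of the sum in monolayers. Fabp1 was lower in SI monolayers than in SI tissue, with a log2 fold change of -3.28 (adjusted p = 0.00515 in edgeR).

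Transcripts of markers of other cell types were detected at levels that differed between groups, which does not by itself show cells of that type. The 8 immune markers summed to 9245, 9002 and 6273 normalized counts in SI tissue, 2108, 1692 and 1989 in LI tissue, 656, 610 and 584 in SI monolayers, and 514, 583 and 478 in LI monolayers. Their sum was highest in SI tissue, where 9 members were lowest, and Ptprc was the most abundant of them in both tissues. In each region 6 of the 8 were called lower in monolayers, and Cd68, a macrophage marker, was called higher, by 1.63 in SI and 2.24 in LI (log2 fold change, adjusted p = 6.4e-06 and 5.9e-08 in edgeR). The 8 mesenchymal markers summed to 1636, 569 and 459 in SI tissue, 3800, 3079 and 2273 in LI tissue, 593, 1176 and 1216 in SI monolayers, and 3469, 3238 and 2107 in LI monolayers. Their sum was higher in LI than in SI in both preparations, with Dcn, Col3a1 and Col1a1 each leading in a library of LI tissue and Col1a1 in the other groups. The similar sums of LI tissue and LI monolayers hide opposite changes. Pdgfra (3.20) and Lum (1.90) were called higher and Dcn (-1.83) and Des (-3.34) lower in LI monolayers. Des had 496, 36.6 and 16.1 normalized counts in LI tissue and 19.3, 23.0 and 9.88 in LI monolayers. Its fall thus came mostly from LI tissue replicate 1, and the other libraries of these groups overlapped. Acta2 was also highest in LI tissue replicate 1, at 800 against 157 and 105 in replicates 2 and 3. The 4 endothelial markers had a mean sum of 287 in SI tissue, 393 in LI tissue, 69.5 in SI monolayers (Cdh5 at 0) and 212 in LI monolayers. In LI monolayers against LI tissue Vwf was called lower (-2.80), and Cdh5 was called higher (1.82), against the direction of the sum. Kdr passed the filter through LI monolayers, so its call there supports nothing. Mitochondrial transcripts took 4.56% to 9.16% of counts in SI tissue, 2.25% to 2.59% in LI tissue, 0.472% to 0.559% in SI monolayers, and 0.704% to 0.750% in LI monolayers. The part of other cells and of RNA quality in the members' differences was not tested.

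On the plus strand of GRCm38 are Fos (chr12:85473890-85477273), Fosl1 (chr19:5447547-5455946), Egr1 (chr18:34859823-34864984) and Nr4a1 (chr15:101254269-101274795). On the minus strand are Fosb (chr7:19302696-19310051), Jun (chr4:95049034-95052222), Junb (chr8:84974484-84978718), Ier2 (chr8:84661331-84662852), Atf3 (chr1:191170296-191218039) and Dusp1 (chr17:26505590-26562128). Junb and Ier2 are 312 kb apart, yet Junb was highest in LI monolayers and Ier2 in LI tissue. Jdp2 (chr12:85599027-85639878) and Batf (chr12:85686669-85709087) lie 122 kb and 209 kb from Fos. In SI the log2 fold changes against tissue were 0.02 for Fos and 3.10 for Jdp2, and in LI they were -2.13 and 4.56. Batf3 lies 61.4 kb from Atf3, which was higher in SI monolayers, where Batf3 was listed at 0, than in SI tissue.

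The tested genes most like the mean standardised profile of the 10 members over the 12 libraries were Mat2a (Pearson's r = 0.990), BC016579 (0.989), Isg20 (0.988), Dync1li2 (0.988) and Lzts2 (0.985). The libraries fall into 4 groups, so r mainly reflects the order of the group means, and no p was attached to it.

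Promoter windows of 300 bases, from 250 before to 50 after the start that RefSeq gives, were matched for 7 members (not for Fosl1, Egr1 and Ier2) and searched on both strands. The AP-1 element TGACTCA was found in 5.20% of all 32851 windows and in none of these 7. The cyclic AMP response element TGACGTCA occurred in 1.79% of all windows and in 1 member, Dusp1. The shorter TGACGT motif, which was added after the sequences had been read and which each full element holds on both strands, occurred in 7.51% of all windows and in 3 members, Fos, Atf3 and Dusp1. The CArG box, the binding element of serum response factor, occurred in 1.63% of all windows and in none of the 7. A match describes these letters, not a bound site, and no match says only that the letters are not in this window.

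The windows of 4 members with different patterns are shown, Fos and Jun (highest in LI tissue) and Atf3 and Dusp1 (highest in LI monolayers), with the matched elements in capitals. They run 5′ to 3′ along the gene's strand in GRCm38.p6, at chr12:85473640-85473939 (plus) for Fos, chr4:95052173-95052472 (minus) for Jun, chr1:191183284-191183583 (minus) for Atf3 and chr17:26508423-26508722 (minus) for Dusp1. Each covers sequence upstream of the RefSeq start and the beginning of the first exon, and for Atf3 and Dusp1 that start lies inside the longer gene span of GENCODE. The TGACGT match begins at -66 in Fos and at -8 in Atf3, counted from 0 at the start.
Fos: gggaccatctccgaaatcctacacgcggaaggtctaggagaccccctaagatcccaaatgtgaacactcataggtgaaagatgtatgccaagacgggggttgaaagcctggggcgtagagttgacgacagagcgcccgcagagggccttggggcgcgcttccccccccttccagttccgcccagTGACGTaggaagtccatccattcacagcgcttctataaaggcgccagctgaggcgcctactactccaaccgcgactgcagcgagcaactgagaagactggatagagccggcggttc
Jun: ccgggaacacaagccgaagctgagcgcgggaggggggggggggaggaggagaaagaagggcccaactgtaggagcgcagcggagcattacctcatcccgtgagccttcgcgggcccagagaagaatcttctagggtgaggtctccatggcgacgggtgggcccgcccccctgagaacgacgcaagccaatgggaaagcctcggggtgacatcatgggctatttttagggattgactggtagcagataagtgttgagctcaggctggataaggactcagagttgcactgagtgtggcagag
Atf3: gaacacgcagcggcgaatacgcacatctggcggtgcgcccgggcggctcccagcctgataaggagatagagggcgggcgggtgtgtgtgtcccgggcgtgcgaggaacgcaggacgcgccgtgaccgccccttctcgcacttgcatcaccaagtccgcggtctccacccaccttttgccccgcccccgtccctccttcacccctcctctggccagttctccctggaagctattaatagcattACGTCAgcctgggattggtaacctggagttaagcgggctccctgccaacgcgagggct
Dusp1: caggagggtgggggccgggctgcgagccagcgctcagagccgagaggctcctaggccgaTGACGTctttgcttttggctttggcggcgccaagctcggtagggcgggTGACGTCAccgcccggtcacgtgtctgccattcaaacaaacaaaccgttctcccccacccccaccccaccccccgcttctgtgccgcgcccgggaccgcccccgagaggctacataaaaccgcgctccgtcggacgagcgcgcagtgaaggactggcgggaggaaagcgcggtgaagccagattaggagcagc
The window of Dusp1 holds both the full element and a separate TGACGT match, that of Jun has no match, and the capitals in that of Atf3 are the motif as read from the other strand.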

How the data were processed

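Per the labels and methods, the authors aligned paired-end reads to GRCm38 with STAR 2.7.9a, counted them on GENCODE genes with featureCounts 2.0.2 and deposited whole-number counts per gene, without normalization. The authors also deposited a normalized signal, the counts over 1 size factor per library (0.850 to 1.12) from DESeq2. The counting of mates and strand is not given in the sources used here. Between 73.4% and 77.4% of counts from 1 to 20 were even, so both mates of a pair may have been counted.

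All columns were mapped to a library by title. Genes were named by Ensembl identifier (55141 of 55487 named). Lengths are the union of exons in GENCODE vM21, which shares the build of the counts but not the release.

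Counts were tested with edgeR 4.0.16 in R 4.3.3 (filterByExpr by group, TMM, robust glmQLFit) in 1 model of the 4 group means, after a check on simulated counts. The fit's biological coefficient of variation had a median of 0.127. The SE is the log2 fold change divided by the square root of the test's F statistic and is not given where p exceeded 0.95, a limit set after the values were seen. The 95% interval uses the test's degrees of freedom. Replicates differed by more than counting noise, so each library counted once. Tissue replicates are mice, while pooled wells of monolayers may share animals, so their p-values measure the spread between these samples. The 4 groups share 1 estimate of spread per gene, so the p-value of a comparison also reflects the spread in groups outside it.

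The members and lists were chosen with earlier results of these data known. Named genes are the members, up to 4 called genes per pathway list and within-region comparison by the highest and lowest fold change, the 5 genes most alike and genes of the epithelial, small intestine, immune, mesenchymal and endothelial marker lists. Fosl2 and Jund complete the families. These, the genes overlapping members and the neighbours were named after their values were seen. Alternatives were upper quartile scaling, DESeq2 1.42.0, no filter, a floor of 10 counts for every library, calls by adjusted p alone, a fit of the compared groups, a replicate block, counts halved and rounded down, each library left out and, for levels, TMM CPM. Tables and plots used Python 3.11.15 with pandas 2.3.3 and matplotlib 3.10.9.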

Additional observations from a re-analysis of the deposited data

Results flagged for a closer look

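Of the 10 members and the genes named from the pathway lists, 35 genes in all, the interaction of region and preparation in edgeR (log2 scale, SI change minus LI change) was called for 18, with 8 positive and 10 negative values. Of all tested genes 11.4% were called with a positive and 8.51% with a negative value. The named list genes had been picked for extreme changes within a region, and other list genes were called too, so the count says nothing of the lists.

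Among the members the difference was 2.15 for Fos, 3.59 for Fosb, 1.84 for Jun, 2.67 for Egr1, 1.14 for Atf3 and 1.11 for Ier2. Fos, Fosb and Jun were called lower in LI monolayers than in LI tissue and were not called in SI, Egr1 and Atf3 had the larger rise in SI, and Ier2 had values of opposite sign.

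Among other immediate early genes it was 1.41 for Klf4, which fell further in LI, and -2.10 for Ier3 and -2.57 for Plk2, which rose further in LI. Among ERK feedback genes it was -1.03 for Dusp10, -1.41 for Dusp14 and 3.35 for Etv5, the last of which was higher in SI monolayers than in SI tissue and lower in LI monolayers than in LI tissue. Elk3 gave -2.17, Plau -1.86 and Hsph1 -1.93, each rising further in LI. For the metalloproteinases the fitted values, which support nothing, were -11.48 for Mmp3, -7.68 for Mmp10 and -7.27 for Mmp13. These genes had few counts outside LI monolayers, through which they passed the filter, and that of Mmp3, with no count in LI tissue, depends on the small count that edgeR adds and is no bound.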

How the results depend on the processing

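Over the alternatives, 985 member values were computed for the 50 reported, and 924 kept their direction and their side of the threshold, 15 lost a call, 27 gained one and 19 changed sign. The sign changes fell on 3 uncalled values near 0. Fos in SI monolayers against SI tissue was -0.0153 with upper quartile scaling, -0.0167 with DESeq2 and -0.0457 with at least 10 counts in every library, and ranged from -0.0788 to 0.135 with libraries left out. Fos between monolayers was -0.0208 with DESeq2, -0.0201 without a filter and -0.0237 with at least 10 counts. The Fosl1 interaction was 0.0679 with upper quartile scaling, 0.0175 without a filter and 0.0468 with halved counts, and ranged from -0.434 to 0.661 with libraries left out. The cause was not tested. Lost calls fell on Fosl1 between tissues, Fosl1 between monolayers, Atf3 in LI and the Atf3 interaction.

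With at least 10 counts in every library Fosl1 was not tested, and fewer genes were called in SI (3140), in LI (4797), between tissues (2606) and between monolayers (2442), since fewer were tested. Without a minimum fold change the calls were 11674, 13445, 10558 and 10145 in the same order and 9069 for the interaction, and 10 members were called in LI and 6 between monolayers. As reported, 5110, 7442, 4446, 4159 and 3909 genes were called. Leaving out each library gave 6 members in SI, 5 to 7 in LI, 8 to 10 between tissues, 3 to 4 between monolayers and 5 to 7 for the interaction. The interaction was not run with only the groups compared, since it needs all 4. With TMM CPM, 5 members were highest in LI monolayers, and 9 kept the order of all 4 groups.

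Same-numbered libraries did not deviate together (r from -0.0516 to 0.0563 over 18 pairs), so the numbers were not taken as pairs, and whether such libraries share an animal is not stated. With a replicate block 6, 6, 8, 3 and 6 members and 5017, 7367, 4383, 4083 and 3807 genes were called in the 5 comparisons, and Fosl1 between tissues was the call that ended (adjusted p = 0.0694 in edgeR, 0.00533 to 0.237 over the alternatives).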
